A study of Mus musculus with 29 samples.

Results

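The effect of trauma in the amygdala of Res-T mice was measured as the difference between 4 libraries with trauma and 3 libraries without trauma, over all 9872 genes of the table that held them. These 7 libraries are part of a series of 29 samples, of which 26 had columns and 13 came from the amygdala. Every mouse carried the B6.Cg-Tg(Thy1-YFP)HJrs/J transgene, in which the neuronal Thy1 promoter drives a yellow fluorescent protein in a subset of projection neurons. Fluorescent cells, labelled as pyramidal neurons, were sorted from enzymatically dissociated amygdala punches, and total RNA was sequenced after ribosomal RNA removal with a kit for very small inputs. The groups used here were Res-T without trauma, Res-T with trauma and, for comparison, the Sus-T groups without and with trauma (2 and 4 libraries). Prefrontal Res-T libraries (4 without and 3 with trauma) were also compared. The labels gave neither the trauma procedure nor the age or sex of the mice, and did not spell out Res-T and Sus-T, which are the study's 2 groups of mice in work on fear extinction. For these 13 libraries the series describes RNA from 9 mice. Nothing stated that each library came from a separate animal, so the p-values measure the spread between these libraries, which may be partly technical.

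The amygdala links a threatening event to the cues that came with it, and its pyramidal neurons carry that output. Plasticity at their excitatory synapses rests on postsynaptic scaffolds such as Psd-95, on the calcium-dependent kinase CaMKII and on presynaptic release proteins, and it needs protein synthesis and mitochondrial energy. Oligodendrocytes wrap the axons of these neurons in myelin, so their transcripts are abundant around them in the tissue.

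Each deposited value is a signal per gene without a stated unit, and the authors' normalization is not given in the sources used here. Library totals were 3753466, 3974274 and 3795963 without trauma and 3544036, 3397405, 3381684 and 3558887 with trauma, and the number of reads behind them is unknown. Fold changes are on the log2(value + 1) scale, always with minus without trauma, and "called" means a limma p below 0.05 after Benjamini-Hochberg adjustment over all genes. Within Res-T without trauma the log2 values of library pairs correlated at 0.970 to 0.974. Within Res-T with trauma replicate 2 stood apart, at 0.885 to 0.890 with the group's other libraries against 0.940 to 0.953 among those. One direction of variation among the 13 libraries is missing from the deposited values. It lay within groups (between-group share 0.000), so the spread between libraries of a group, and with it each p, may come out smaller than it was.

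The cell-type label was checked against marker genes. Of 18 pyramidal neuron markers 5 had values here (Camk2a, Camk2n1, Cux2, Etv1 and Nrgn), and they summed to 0.0299 to 0.0415 percent of the library without trauma and 0.0574 to 0.0782 percent with trauma. The 20 oligodendrocyte markers with values summed to 6.54 to 7.65 percent without and 4.84 to 6.11 percent with trauma. Astrocyte markers (20 genes) summed to 0.761 to 0.931 percent and 0.982 to 1.55 percent. The libraries thus held RNA of other cells beside that of neurons. Oligodendrocyte sums were lower and astrocyte sums higher in each library with trauma. The pyramidal sums were below both in every Res-T library, so the markers do not by themselves bear out the label. In Sus-T the same pyramidal markers averaged 0.152 ± 0.0121 percent without and 0.139 ± 0.0739 percent with trauma (SD), above all Res-T libraries. In such bulk libraries fewer cells of a type and less RNA per cell cannot be told apart. The part of these shares in the gene results below was not tested beyond a fit with the mean oligodendrocyte marker value as a covariate.

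With trauma, Res-T amygdala had higher values of genes for ribosomes (56 of 68 called), for the respiratory chain (21 of 68) and for the postsynaptic density (10 of 24). Of genes for axon guidance and adhesion 7 of 31 fell and 2 rose. Limma called 610 of 9872 genes (6.18%). Of these 326 rose (3.3% of the genes tested) and 284 fell (2.88%). The median log2 change of the risers was 1.15 and that of the fallers −0.85, against a median of −0.05 over all genes, of which 46.2% were positive. At least 2-fold changes were called for 235 risers (2.38%) and 75 fallers (0.76%). All libraries with trauma lay beyond all libraries without in 319 of the risers and 281 of the fallers. Over all genes the same held for 2284 (23.1%), of which 956 (9.68%) were higher and 1328 (13.5%) lower with trauma. The split between directions depended on scaling, with 354 higher and 146 lower after quantile normalization and 292 higher and 396 lower after median centring.

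The count also depended on single libraries of the group without trauma. Without its replicate 1, 2 or 3 the calls were 101, 142 and 163, and leaving out replicate 3 of the group with trauma gave 322. Without replicate 1 of the group with trauma 408 were called, and without its replicate 2, the library that stood apart, 626. All 610 genes kept their direction in each of these fits. For the 319 risers and 281 fallers whose groups lie apart, leaving out a library cannot change the direction. With the oligodendrocyte covariate 570 genes were called (342 higher, 228 lower), of which 301 were among the 610, and all 610 kept their direction. Of 72 called genes described by name, 27 kept their call in all 19 alternative fits. These 27 comprise the 10 rising and the 10 falling genes with the smallest p and Camk2a, Dlgap1, Psd, Rpl10a, Rps13, Atp5k and Plxna4. The oligodendrocyte covariate ended the call of 24 of the 72. These were Aspa, Cacna1b, Camk2n1, Cpe, Crlf2, Dnah9, Enpp6, Fosl2, Grik5, Kif13a, Kif13b, Msantd1, mt-Co3, Myrf, Ndufb9, Pcdh9, Plxnd1, Sema4d, Snap91, Tmem88b, Trim6, Trpc2, Tubb5 and Unc5c. Aspa and Myrf are themselves among the markers averaged in the covariate, so the loss of their calls was partly built in.

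The 10 rising genes with the smallest p included Basp1, Evl and Syn1. Basp1 (chromosome 15, 25363277 to 25413764 on the minus strand, GRCm38.p6) encodes a membrane protein of growth cones and axon terminals that gathers phosphoinositides. Its values were 59.5, 58.8 and 46.4 without trauma and 199.9, 192.2, 233.0 and 151.9 with trauma. Every library with trauma lay above every library without, by 3.47-fold (log2 1.80 ± 0.20 SE, limma adjusted p = 0.000444). Evl, an actin regulator of the Ena/VASP family (chromosome 12, 108554720 to 108688516), had values of 21.9, 24.3 and 33.6 and then 91.6, 120.0, 90.8 and 79.6. It rose 3.51-fold (log2 1.81 ± 0.26, adjusted p = 0.00348). Syn1, the synaptic vesicle phosphoprotein synapsin I (chromosome X, 20860511 to 20921004), had values of 98.0, 124.1 and 97.0 without trauma and 250.8, 362.5, 275.5 and 259.0 with trauma. It rose 2.67-fold with all 4 libraries above all 3 (log2 1.42 ± 0.20, adjusted p = 0.00348).

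Ncs1, Gng2, Gng3, Mef2c, Tuba1b and Pld3 were also among these 10. Ncs1, a neuronal calcium sensor that modulates release and ion channels, went from 43.1, 33.2 and 35.1 to 130.2, 146.7, 164.6 and 276.1. Its rise was 4.56-fold, with replicate 4 the highest (log2 2.19 ± 0.34, adjusted p = 0.00497). Gng2 and Gng3 encode gamma subunits of heterotrimeric G proteins. Gng2 averaged 25.3 ± 7.29 (SD, n = 3) without trauma and 94.4 ± 25.5 (SD, n = 4) with it. Gng3 averaged 19.4 ± 2.9 and 88.6 ± 33.6 (adjusted p = 0.00572 for Gng2 and 0.006 for Gng3). Mef2c, a transcription factor that limits synapse number downstream of neuronal activity, had values of 90.2, 98.8 and 216.2 and then 466.1, 363.4, 358.7 and 298.3. Replicate 3 without trauma was higher than the other two but still below every library with trauma (log2 1.55 ± 0.26, adjusted p = 0.006). Tuba1b, an alpha-tubulin, rose 2.5-fold and Pld3, a lysosomal enzyme of neurons, 3.02-fold. Both had their highest value in replicate 2 with trauma, 1199.0 for Tuba1b and 780.4 for Pld3, where the other 3 libraries lay at 641.9 to 697.4 and 308.3 to 340.5.

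**Figure D1:**
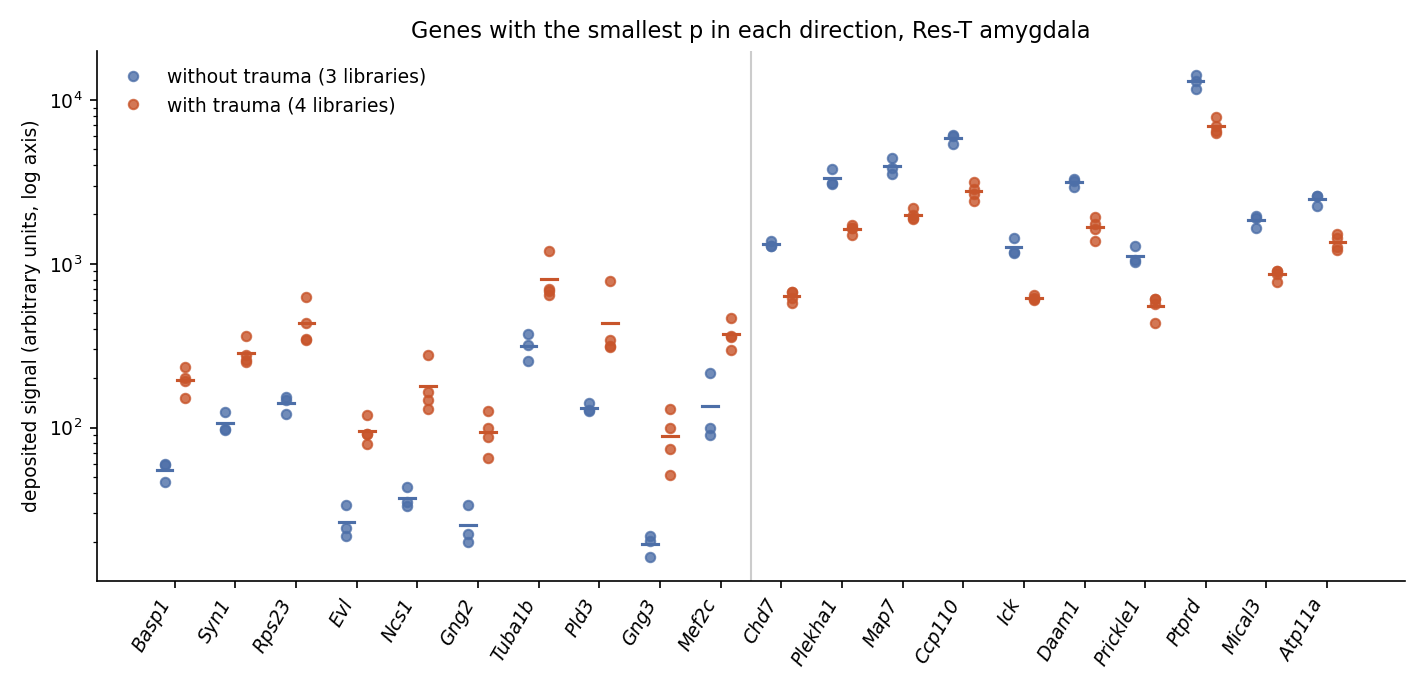
Deposited signal (log axis) of the 10 rising genes (left) and the 10 falling genes (right) with the smallest p, in each Res-T amygdala library. Points are libraries and bars are means; in all 20 genes the 4 libraries with trauma lie on one side of the 3 libraries without.

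The 10 falling genes with the smallest p included Chd7, Ccp110 and Ick. Chd7, a chromatin remodeller (chromosome 4, 8690406 to 8867659), had values of 1387.0, 1288.9 and 1288.1 without trauma and 614.4, 575.5, 668.4 and 669.7 with trauma. It fell by 1.06 on the log2 scale, a 2.09-fold lower level (SE 0.15, adjusted p = 0.00348). Ccp110, a centriolar protein that restrains cilium formation (chromosome 7, 118712552 to 118737024), went from 6086.2, 5422.4 and 6030.6 to 3143.1, 2425.1, 2656.4 and 2847.0. It was 2.12-fold lower with the groups apart (log2 −1.08 ± 0.17, adjusted p = 0.00497). Ick, a kinase of cilia, was 2.03-fold lower and close to equal in all 4 libraries with trauma, at 598.3, 642.5, 607.1 and 620.0 against 1157.6, 1444.0 and 1185.0 (adjusted p = 0.00572).

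Daam1 and Prickle1 belong to planar cell polarity signalling. Daam1, a formin that builds actin filaments, averaged 3144.1 ± 198.9 and then 1668.5 ± 229.1 (log2 −0.92 ± 0.15, adjusted p = 0.00572), and Prickle1 averaged 1120.7 ± 143.1 and 554.3 ± 80.9 (log2 −1.02 ± 0.17, adjusted p = 0.006). Map7, which loads kinesin-1 onto microtubules, went from 3871.1, 4432.0 and 3547.3 to 1895.7, 1879.3, 1987.0 and 2196.6 (1.98-fold lower, adjusted p = 0.00497). Plekha1, an adaptor that binds a phosphoinositide, was 2.03-fold lower (adjusted p = 0.00497). Ptprd, a receptor phosphatase of synaptic adhesion, went from 11661.6, 13081.6 and 14243.3 to 6922.6, 6312.4, 6498.6 and 7928.8 (log2 −0.91 ± 0.15, adjusted p = 0.006). Mical3, an enzyme that oxidizes actin, was 2.13-fold lower and Atp11a, a lipid flippase, 1.82-fold lower (both adjusted p = 0.006).

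Ribosomal protein genes had the highest share of called members among the 34 lists. Of 68 cytosolic ribosomal protein genes with values 56 rose and none fell, where 3.3% of all genes rose, and their median log2 change was 1.07 against −0.05 over all genes. In 61 of the 68 every library with trauma lay above every library without. Their summed values made up 0.491, 0.523 and 0.461 percent of the library without trauma and 0.873, 1.26, 1.33 and 0.856 percent with trauma. All 4 libraries lay above all 3, and an exact two-sided permutation test gave p = 0.0571, the smallest that 35 splits allow (adjusted p = 0.106 over 13 lists). Rps23, a protein of the small subunit near the decoding site, had values of 120.7, 147.5 and 152.8 and then 343.0, 434.0, 625.0 and 348.1 (3.02-fold, log2 1.60 ± 0.23, adjusted p = 0.00348). Rpl10a rose 2.76-fold and Rps13 2.28-fold. The range over the list ran from −0.03 to 1.60. Ribosomal protein genes have many near-identical processed copies, and how the quantification divided their reads is not known, so single members are uncertain. The count was 55 with the oligodendrocyte covariate, 49 with the missing direction as a covariate and 47 without the library that stood apart. Without replicate 1, 2 or 3 of the group without trauma it was 14, 20 and 12, while the median stayed between 1.03 and 1.12.

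Transcripts of ribosomal proteins are known for a start in an unbroken run of pyrimidines, by which their translation responds to growth signals. Such a start was searched for in the RefSeq promoter table of GRCm38.p6 (300 bases, 250 before and 50 after each gene's start). It was taken as a C within 1 base of the start that opens a run of at least 5 pyrimidines, the C included. The first 30-base stretches below show it for 4 ribosomal protein genes that rose, written 5′ to 3′ on the strand of the gene. Capitals mark the run from that C on, and pyrimidines just before it are in lower case. Rpl27a lies at chr7:109519185-109519214, Fau at chr19:6057937-6057966, Rpl15 at chr14:18270967-18270996 on the minus strand and Rpl35 at chr2:39005112-39005141 on the minus strand.
Rpl27a: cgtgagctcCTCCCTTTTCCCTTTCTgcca
Fau: gcccccacttCTTCCTCTTTCTTgactcca
Rpl15: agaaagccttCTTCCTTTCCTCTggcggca
Rpl35: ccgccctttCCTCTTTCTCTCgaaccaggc
Counted from that C, the runs were 17, 13, 13 and 12 bases long. The 4 genes rose by log2 1.04 (Rpl27a), 1.07 (Fau), 1.01 (Rpl15) and 1.21 (Rpl35). Of the 68 ribosomal genes 49 had a promoter in the table, and 17 of these (34.7%) held such a start. The share was 17.1% of 245 risers with a promoter, 8.26% of 218 fallers, 8.97% of 7716 genes tested and 7.51% of all 27025 promoters. The risers include 56 ribosomal genes, so their share is not separate from the ribosomal one. A share of the other risers was not computed.

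A cyclic AMP response element, the palindrome TGACGTCA to which the factor CREB binds, was searched on both strands of the same windows. It stood in 10 of the 245 risers (4.08%), in 4 of the 218 fallers (1.83%), in 3.68% of the genes tested and in 2.03% of all promoters. Of the 49 ribosomal promoters 5 (10.2%) held it, and ribosomal genes that rose are counted among the risers as well. The stretches of 60 bases around it, in capitals, are shown for the presynaptic riser with the smallest p and for 2 ribosomal genes. Syn1 lies at chrX:20921044-20921103 on the minus strand, Fau at chr19:6057876-6057935 and Rpl26 at chr11:68901406-68901465.
Syn1: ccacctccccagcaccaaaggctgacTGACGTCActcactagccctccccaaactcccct
Fau: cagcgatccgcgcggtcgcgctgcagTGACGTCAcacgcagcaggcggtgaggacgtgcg
Rpl26: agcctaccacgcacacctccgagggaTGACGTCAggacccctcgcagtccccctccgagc
The early growth response site GCGGGGGCG, bound by immediate early zinc finger factors, stood on either strand in 27 risers (11.0%), 14 fallers (6.42%) and 6.95% of the genes tested. Iqsec2, a postsynaptic exchange factor (chrX:152144067-152144126), and the calcium channel gene Cacna1b (chr2:24763253-24763312, minus strand) are 2 of the risers that hold it. Capitals mark the first match only, and the Cacna1b stretch holds the site again in lower case shortly after it.
Iqsec2: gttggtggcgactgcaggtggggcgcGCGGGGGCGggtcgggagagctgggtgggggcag
Cacna1b: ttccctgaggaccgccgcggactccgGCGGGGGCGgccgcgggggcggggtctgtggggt
A match describes letters in a window and not a bound site, and these shares carry no test.

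Respiratory chain genes came next to them in number. Of 68 nuclear-encoded subunits of the respiratory complexes and ATP synthase 21 rose and none fell, the median log2 change was 0.75, and all 68 values were positive, from 0.06 to 1.54. Atp5k, a subunit of ATP synthase, had values of 42.8, 38.6 and 39.3 and then 89.1, 174.9, 142.8 and 89.7 (2.91-fold, log2 1.54 ± 0.29, adjusted p = 0.01). The complex I subunits Ndufb8 and Ndufb9 rose 2.08-fold and 2.69-fold (adjusted p = 0.0116 and 0.0144). The call of Ndufb9 also ended without each of the 3 libraries without trauma. The summed share of the list was 0.256 ± 0.0058 percent without trauma (n = 3) and 0.508 ± 0.164 percent with it (n = 4), with the highest value, 0.725 percent, in replicate 2 (exact permutation p = 0.0571, adjusted p = 0.106). Without that library 15 members were called, and with the oligodendrocyte covariate 20. Without replicate 1, 2 or 3 of the group without trauma 1, 4 and 3 were called. Of 2 mitochondrially encoded transcripts with values 1 rose. This was mt-Co3, a subunit of cytochrome oxidase, which went from 7443.4, 11423.2 and 15811.3 to 29343.4, 27260.8, 43753.0 and 41755.8 (log2 1.66 ± 0.41, adjusted p = 0.0262), a call lost with the oligodendrocyte covariate.

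Genes of the postsynaptic density rose in 10 of 24 members with values and fell in none (median log2 change 0.74). Camk2a, the alpha subunit of CaMKII, had values of 55.3, 77.3 and 68.4 without trauma and 421.5, 835.0, 238.0 and 435.7 with trauma. This was 6.5-fold, with replicate 2 the highest (log2 2.70 ± 0.49, adjusted p = 0.01). In Sus-T its values were 1656.1 and 2965.0 without trauma and 3974.0, 1138.3, 2306.2 and 762.3 with trauma. Dlgap1, a scaffold that ties Psd-95 to Shank proteins, went from 209.6, 150.4 and 160.3 to 470.9, 424.6, 345.0 and 383.9 (2.34-fold, log2 1.23 ± 0.21, adjusted p = 0.006). Psd, an activator of Arf6 in dendrites, averaged 21.1 ± 1.98 and then 84.4 ± 19.1 (3.79-fold, adjusted p = 0.0103). Dlg4, which encodes Psd-95, rose by log2 1.25, Shank2 by 2.02 and Kalrn, a spine-enlarging exchange factor, by 0.88. Sipa1l1, Iqsec2 and Cnksr2 also rose. The list summed to 0.283 ± 0.00492 percent without trauma (n = 3) and 0.399 ± 0.0579 percent with it (n = 4), without overlap (exact permutation p = 0.0571, adjusted p = 0.106). Without the library that stood apart 11 members were called, with the oligodendrocyte covariate 7, and without replicate 1, 2 or 3 of the group without trauma 7, 4 and 5.

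Presynaptic genes rose in 8 of 27 members with values and fell in none (median 0.29). Beside Syn1 these included Bsn, the large scaffold of the active zone, which averaged 87.1 ± 11.3 and then 275.6 ± 93.9 (3.02-fold, log2 1.59 ± 0.33, adjusted p = 0.0117). Snap91, a clathrin adaptor for vesicle retrieval, had values of 225.6, 233.7 and 227.1 and then 427.1, 339.4, 408.7 and 438.6 (1.75-fold, adjusted p = 0.01). The fusion machinery was represented by Nsf (log2 1.17) and Vamp2 (0.79), and the active zone by Ppfia4 (1.95). With the oligodendrocyte covariate 4 members were called, and Snap91 was not among them. Leaving out any of the 3 libraries without trauma left 3.

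The called ion channel genes rose, except Kcna1. Of 24 potassium channel genes 6 rose and 1 fell (median 0.58). Kcnma1, the calcium-activated BK channel, went from 70.4, 83.6 and 123.5 to 271.8, 270.1, 206.4 and 175.9 (2.51-fold, adjusted p = 0.00976). Kcnip3, a calcium-binding partner of Kv4 channels, rose 2.54-fold and Kcnc1, the fast Kv3.1 channel, 2.68-fold (adjusted p = 0.0106 and 0.0198). Kcnt2 and Dpp6 rose by log2 1.49 and 1.19. Kcna1, the axonal Kv1.1 channel, was the member that fell, from 1288.4, 2062.3 and 1314.6 to 713.1, 755.1, 659.9 and 846.1 (2.05-fold lower, adjusted p = 0.0233). Its call ended after quantile normalization and without the trend and robust options of limma. It also ended without replicate 3 of the group with trauma and without each library of the group without trauma. Leaving out replicate 1, 2 or 3 without trauma left 1, 2 and 2 of the 6 rises. Among 16 sodium, calcium and HCN channel genes Cacna1b and Cacna1g rose (12.5%), too few calls to set so short a list apart. Cacna1g, a T-type calcium channel, overlapped between the groups (20.9, 15.3 and 3.17 against 55.9, 144.9, 46.4 and 18.7, adjusted p = 0.045), and neither call held without the library that stood apart.

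Some receptor genes were called, where over all genes 3.3% rose and 2.88% fell. Among 17 ionotropic glutamate receptor genes Gria3, Grik5 and Grin3a rose (median of the list 0.14). Gria3, an AMPA receptor subunit, averaged 53.8 ± 13.1 and 123.8 ± 51.7 (log2 1.12 ± 0.29, adjusted p = 0.029), Grik5, a kainate receptor subunit, rose 1.57-fold (adjusted p = 0.0408) and Grin3a, an NMDA receptor subunit, 2.06-fold (adjusted p = 0.0477). These calls each ended in 8 to 12 of the 19 alternative fits. Grin2b, an NMDA receptor subunit, had a log2 change of 0.95 ± 0.45 that was not called (adjusted p = 0.218), with values of 150.6, 118.1 and 150.4 against 295.6, 622.4, 160.9 and 178.5. Grm5, a metabotropic receptor coupled to calcium release, rose 2.11-fold (adjusted p = 0.0189), the only call among 4 metabotropic receptor genes. None of 10 GABA receptor genes was called (median 0.45).

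Activity and stress genes gave few calls. With 6.18% of all genes called, so few calls in short lists do not set them apart. All 10 immediate early genes with values had positive changes (median 0.57), and Fosl2, a partner of Jun in the AP-1 factor, was the only one called. Its values were 69.3, 26.5 and 94.4 and then 174.8, 156.9, 154.1 and 101.1 (log2 1.35 ± 0.39, adjusted p = 0.0463), and the call ended in 9 of the 19 alternative fits. Arc, an activity-regulated gene of the synapse, had values of 952.4, 648.4 and 417.2 and then 587.3, 884.9, 1016.1 and 587.5, which overlap (log2 0.23 ± 0.25, adjusted p = 0.637). None of 10 glucocorticoid and stress genes was called (median −0.12). Nr3c1, the glucocorticoid receptor, averaged 1335.2 ± 108.0 and 1084.5 ± 147.0 (log2 −0.31 ± 0.16, adjusted p = 0.265). Fkbp5, a glucocorticoid-induced chaperone of that receptor, spread from 19.4 to 196.5 without trauma alone, and its log2 change of 0.13 ± 0.52 (adjusted p = 0.913) cannot separate a rise from a fall. Among 18 heat shock and dissociation stress genes none was called (median 0.03). Fos, Egr1, Npas4, Bdnf, Crh, Crhr1 and Thy1 were not analysed here. In the list on fear learning and extinction, 3 of 23 members rose (median 0.35), namely Camk2a, Grm5 and Prkce, a protein kinase C, which averaged 69.8 ± 8.62 and 193.2 ± 48.3 (adjusted p = 0.0105).

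**Figure D2:**
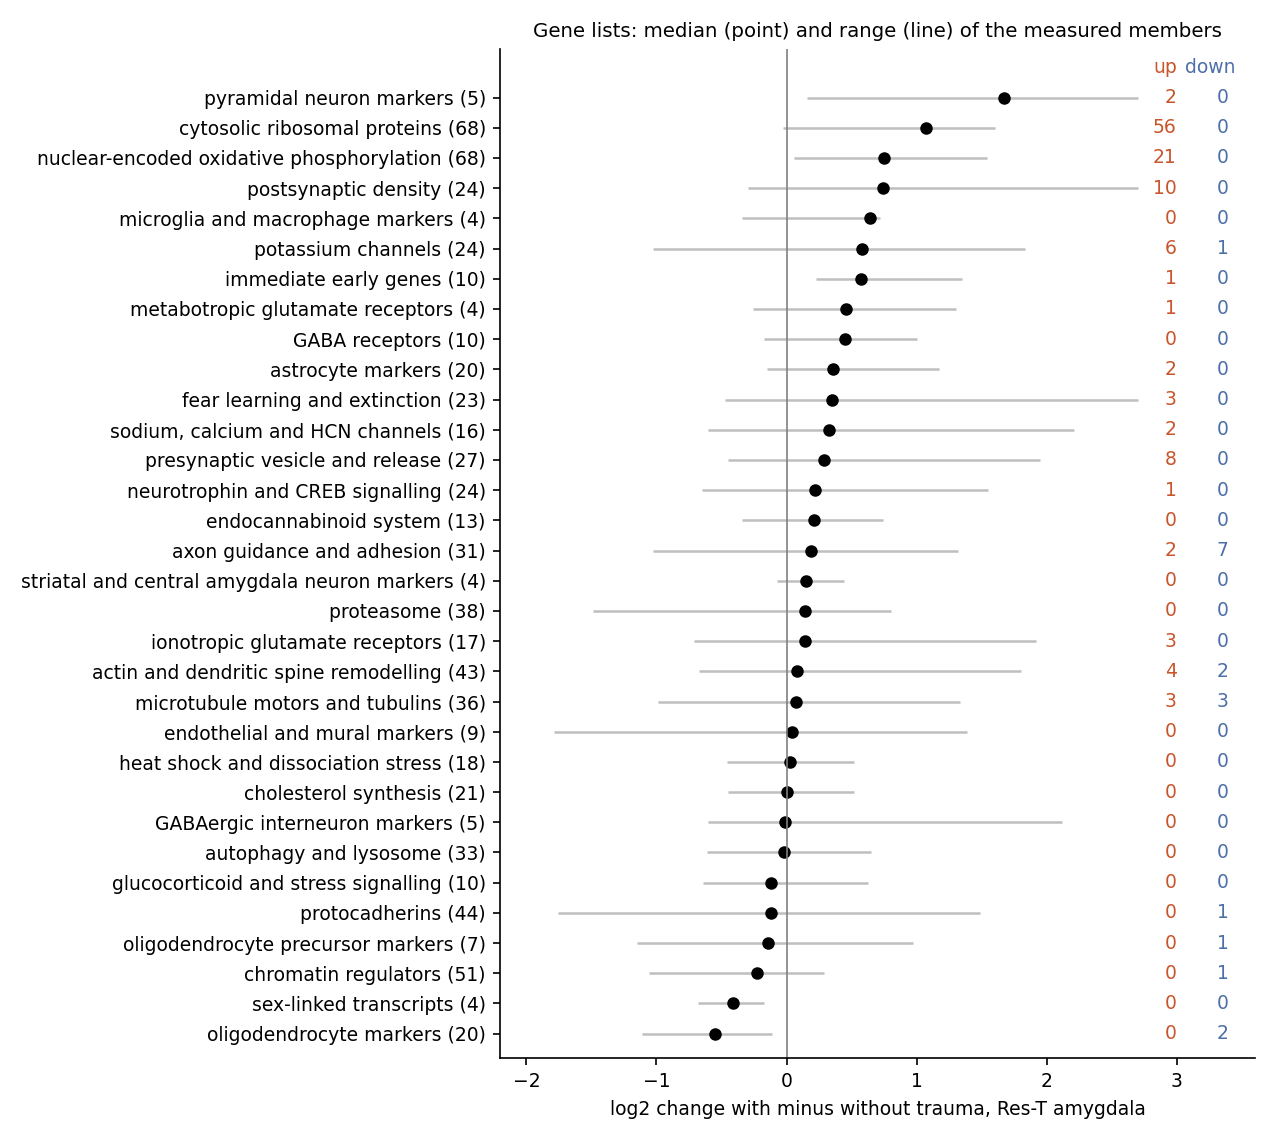
Median (point) and range (line) of the log2 change with minus without trauma for each gene list with at least 4 measured members, their number in parentheses and the called members at the right. Cytosolic ribosomal proteins have 56 of 68 members called higher, and oligodendrocyte markers have the lowest median at −0.55.

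Cytoskeleton, guidance and adhesion genes had calls in both directions. Of 43 genes of actin and spine remodelling 4 rose (9.3%) and 2 fell (4.65%), where 3.3% of all genes rose and 2.88% fell. The median of that list was 0.08, and so few calls do not set it apart. Beside Basp1, Tiam1, an activator of Rac in spines, rose 3.12-fold (adjusted p = 0.0141) and Efnb2, an ephrin ligand, 3.04-fold (adjusted p = 0.0153), and Actg1, a cytoplasmic actin, rose by log2 0.69. Arhgef2, a microtubule-bound exchange factor, was 1.53-fold lower (adjusted p = 0.0342) and Sema4d, a semaphorin, 1.59-fold lower (adjusted p = 0.0378). Among 36 genes of microtubule motors and tubulins the tubulins Tuba1b, Tubb5 and Tuba4a rose, by 2.5-fold, 1.72-fold and 2.51-fold. Map7 and the kinesins Kif13b (1.95-fold lower, adjusted p = 0.011) and Kif13a (1.57-fold lower, adjusted p = 0.0263) fell. In each direction 8.33% of this list was called, and its median was 0.07. With the oligodendrocyte covariate the calls of Sema4d, Tubb5, Kif13a and Kif13b ended.

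Axon guidance and adhesion genes fell in 7 and rose in 2 of 31 members with values, although the median of the list was 0.19. Plxna4, a semaphorin co-receptor, rose 2.5-fold, from 83.0, 60.6 and 64.3 to 177.6, 163.2, 211.0 and 146.0 (adjusted p = 0.01), and Plxnd1 2.17-fold (adjusted p = 0.0257), a call that ended in 5 of the 19 alternative fits. Unc5c, a repulsive netrin receptor, was 1.99-fold lower, at 1228.2, 1564.0 and 1323.2 against 740.0, 594.5, 732.5 and 681.0 (adjusted p = 0.0106). Cdh10, a cadherin, was 1.81-fold lower (adjusted p = 0.0206), and Sema6d, Sema6a, Unc5b and Plxnb3 had log2 changes of −0.64, −0.82, −0.85 and −1.03. Of the 7 falls 2 were called with the oligodendrocyte covariate, 3 with the missing direction as a covariate and 3 after quantile normalization. Pcdh9 was the single one of 44 protocadherins that was called (1.85-fold lower, adjusted p = 0.0111, not called with the oligodendrocyte covariate, after quantile normalization or without replicate 2 or 3 of the group without trauma), and Chd7 the single one of 51 chromatin regulators (median of that list −0.23). Over all genes 2.88% fell, so a single fall in either of these lists is near that share. No member was called among 38 proteasome, 33 autophagy and lysosome, 21 cholesterol synthesis and 13 endocannabinoid genes, where 6.18% of all genes were called.

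Markers of other cells moved beside these lists. All 20 oligodendrocyte markers had negative changes (median −0.55), and 2 were called. Aspa, the enzyme that splits N-acetylaspartate, went from 1956.6, 1974.6 and 2366.9 to 1237.8, 821.4, 1237.5 and 1257.1 (1.86-fold lower, adjusted p = 0.0399). Myrf, the transcription factor of myelin genes, went from 4311.5, 4927.4 and 3492.0 to 2575.3, 2586.5, 1853.7 and 2225.4 (1.83-fold lower, adjusted p = 0.0438). Both calls ended in 10 or more of the 19 alternative fits. Of the summed oligodendrocyte values, 6.95 ± 0.607 percent of the library without trauma and 5.58 ± 0.617 percent with it, the groups did not overlap (exact permutation p = 0.0571). Of 7 oligodendrocyte precursor markers 3 had positive changes, and their sums were 0.202 and 0.212 percent. Enpp6, a marker of newly forming oligodendrocytes, was the one called (2.22-fold lower, adjusted p = 0.0245), a call that ended in 7 of the 19 alternative fits. Pdgfra, the growth factor receptor of these precursors, had a log2 change of 0.97 ± 0.31 that was not called (adjusted p = 0.0683). Astrocyte markers were at 0.868 ± 0.0932 and 1.30 ± 0.234 percent (exact permutation p = 0.0571), and Cpe, a prohormone-processing enzyme that neurons also make, and Mlc1, an astrocyte membrane protein, rose 2.25-fold and 1.91-fold (adjusted p = 0.0309 and 0.0331). Microglia markers were at 0.0207 and 0.0257 percent (exact permutation p = 0.171) and interneuron markers at 0.0869 and 0.0888 percent (p = 0.743, same test). No member of the short interneuron, striatal, microglial or endothelial lists was called, where 6.18% of all genes were. Of the 5 pyramidal neuron markers Camk2a and Camk2n1, an inhibitor of CaMKII, rose, and the call of Camk2n1 (3.19-fold, adjusted p = 0.0434) ended in 12 of the 19 alternative fits.

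**Figure D3:**
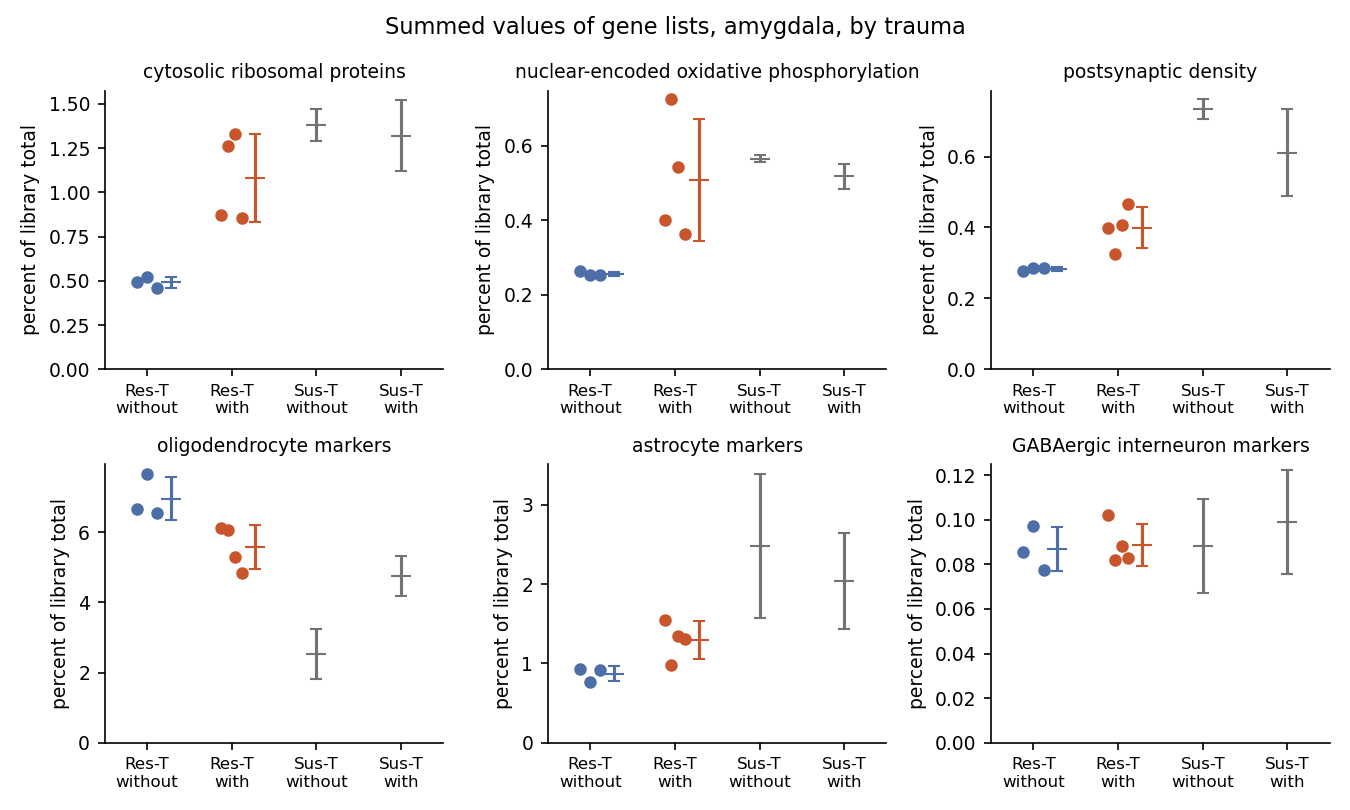
Summed values of 6 gene lists as percent of the library total in the amygdala. Points are Res-T libraries without (blue) and with (orange) trauma, and bars are means with the SD, in grey for Sus-T (2 and 4 libraries); oligodendrocyte markers average 6.95 and 5.58 percent in Res-T and 2.53 and 4.76 percent in Sus-T.

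Beside Camk2a and leaving aside predicted genes, the genes with the largest called changes had low values without trauma. Dnah9, an axonemal dynein, rose 6.64-fold with values of 7.95, 9.11 and 13.3 against 43.6, 295.9, 115.3 and 16.8. It was not called without replicate 2 with trauma (adjusted p = 0.0289 with it). Fam81a (9.81, 14.4 and 19.4 against 77.2, 559.5, 21 and 93.0) and Hs6st2, a sulfotransferase of heparan sulfate chains (1.99, 7.35 and 2.03 against 22.2, 116.1, 12.1 and 13.9), were also highest in that library. Crlf2, a cytokine receptor chain, rose 4.85-fold from a mean of 2.97. Among the fallers Trim6, a ubiquitin ligase, went from 40.5, 32.5 and 27.6 to 4.07, 1.83, 4.11 and 9.22 (log2 −2.71 ± 0.59, adjusted p = 0.0147). Omp, a marker of mature olfactory neurons, fell by 2.30 and Trpc2, a channel of vomeronasal neurons, by 2.28 on the log2 scale, and Msantd1 and Shcbp1l by 2.35 and 2.25. These fallers averaged 3.99 to 9.41 with trauma, near the lowest value of the table (1.35), so their folds depend on the pseudocount of 1.

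Called genes also differed from all genes in level and structure. The median value without trauma was 142.3 over all genes, 112.8 in risers and 1028.5 in fallers. These levels come from the same libraries without trauma that helped choose the genes. Low values there favour a rise and high values a fall, so this difference in level is partly built in. By the GENCODE M21 annotation the median genomic span was 28.2 kb over all genes, 18.8 kb in risers and 64.3 kb in fallers. The median transcript was 3750 bases over all genes, 3146 in risers and 5430 in fallers, with 8, 6 and 13 exons. Without the ribosomal and respiratory lists the order of risers and all genes turned, with medians of 34.5 kb, 3970 bases and 9 exons in risers against 28.7 kb, 3784 bases and 8 exons over all genes. When all genes were divided by transcript length into 5 groups of equal size, the median log2 change went from 0.21 in the shortest group (168 to 2226 bases) through −0.01, −0.08 and −0.12 to −0.16 in the longest (5767 to 123179 bases). In the shortest group 6.48% of genes rose and 0.709% fell, and in the longest 3.09% rose and 6.43% fell. Leaving out the ribosomal and respiratory genes changed the median of the shortest group to 0.17. In Sus-T the medians of the same groups of genes lay between −0.02 and 0.01. The parts of length and level in the calls were not tested.

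**Figure D4:**
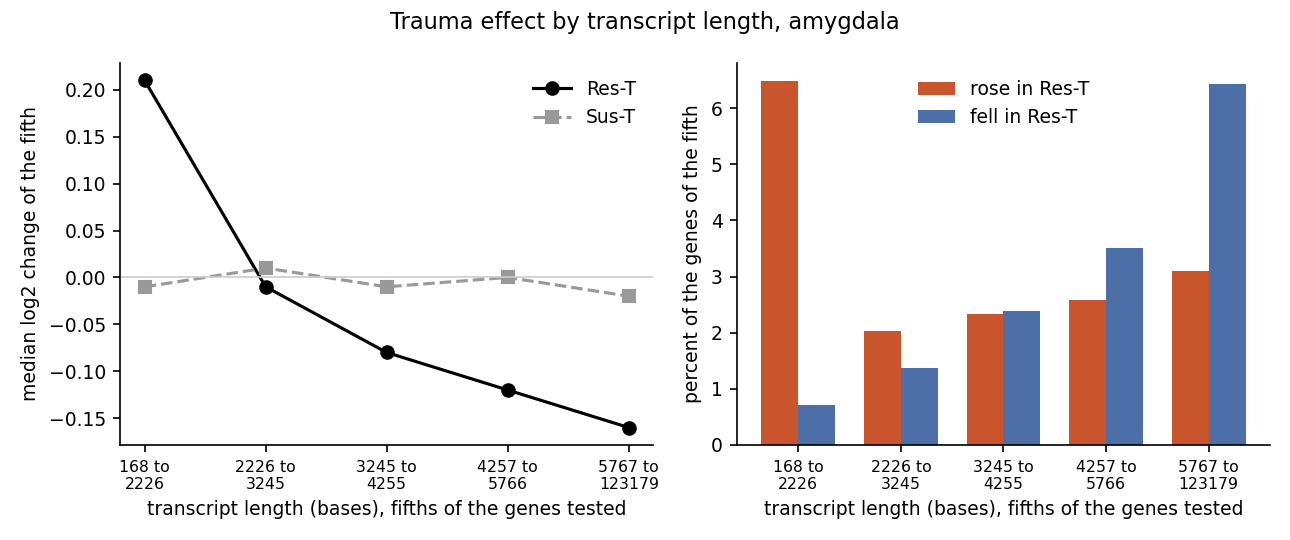
Trauma effect in 5 groups of genes by transcript length: median log2 change in Res-T and Sus-T (left) and percent of genes called in Res-T (right). The Res-T median goes from 0.21 in the shortest to −0.16 in the longest group, while the Sus-T medians lie between −0.02 and 0.01.

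The same contrast in Sus-T amygdala, which shares no library with the Res-T contrast, called 3 genes (0.0304%), 2 of them higher (0.0203%) and 1 lower (0.0101%), and 1168 (11.8%) had an unadjusted p below 0.05. These were Apod, a lipid carrier of glia (log2 1.41, adjusted p = 0.0465), the predicted gene Gm28635 and 1 model with the symbol Zc3h11a. The Sus-T group without trauma had 2 libraries, and leaving out its replicate 3 gave 287 calls. The single library then left in that group is assumed to vary like the other groups, and the same holds without its replicate 1. The difference of the trauma effects was tested in the same model. It was called for 665 genes (6.74%), of which 195 (1.98%) were higher in Res-T than in Sus-T and 470 (4.76%) lower. In 658 of the 665 the trauma effects had opposite signs, which choosing genes by this difference favours. Of the 665 genes, 350 were among the 610 called in Res-T, from the same Res-T libraries. Both counts are a description. With the oligodendrocyte covariate 2 genes were called for the difference, and without Sus-T replicate 1 without trauma 59. Beside this, summed oligodendrocyte markers stood at 6.95 percent without and 5.58 percent with trauma in Res-T, and at 2.53 ± 0.719 and 4.76 ± 0.57 percent in Sus-T. The part of these shares in the difference was not tested further.

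Among the 326 genes that rose in Res-T, 85 (26.1%) had a positive change in Sus-T, where 49.4% of all genes were positive, and their median was −0.17. Among the 284 that fell, 33 (11.6%) had a negative change, and their median was 0.42. The difference was called for 155 of the risers (47.5%) and 195 of the fallers (68.7%). Those counts share the Res-T libraries that chose the genes and are a description. Basp1 was at 490.8 and 469.4 in Sus-T without trauma and 351.7, 305.3, 356.6 and 349.0 with it, above all 7 Res-T libraries in each (difference of log2 changes 2.29 ± 0.30, adjusted p = 0.00134). Gng2 had a difference of 2.81 ± 0.44 (adjusted p = 0.00329) and Mef2c one of 2.63 ± 0.40 (adjusted p = 0.00265), with Mef2c at 963.3 and 912.6 without and 385.6, 370.4, 491.3 and 553.6 with trauma in Sus-T. Dlgap1 and Snap91 had differences of 1.82 ± 0.31 and 1.47 ± 0.23 (adjusted p = 0.00463 and 0.00329).

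Among the fallers Ccp110 was at 972.7 and 1457.5 in Sus-T without trauma and at 2459.2, 2655.0, 2041.4 and 2431.1 with it (difference −2.09 ± 0.25, adjusted p = 0.000967). Its Sus-T values with trauma and its Res-T values with trauma covered a similar range, below all 3 Res-T libraries without trauma. Plekha1, Prickle1 and Unc5c had differences of −1.76, −1.94 and −2.11, and Tmem88b, a membrane protein gene, one of −1.99 ± 0.28 (adjusted p = 0.00221). Of the 24 postsynaptic density genes 10 were called higher for the difference, and of the 68 ribosomal genes 24, where 1.98% of all genes were. Of the 20 oligodendrocyte markers 18 were called lower, where 4.76% of all genes were. These counts are from the fit without a covariate. With the oligodendrocyte covariate, which is the mean of those markers, 2 genes of the whole table were called for the difference.

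**Figure D5:**
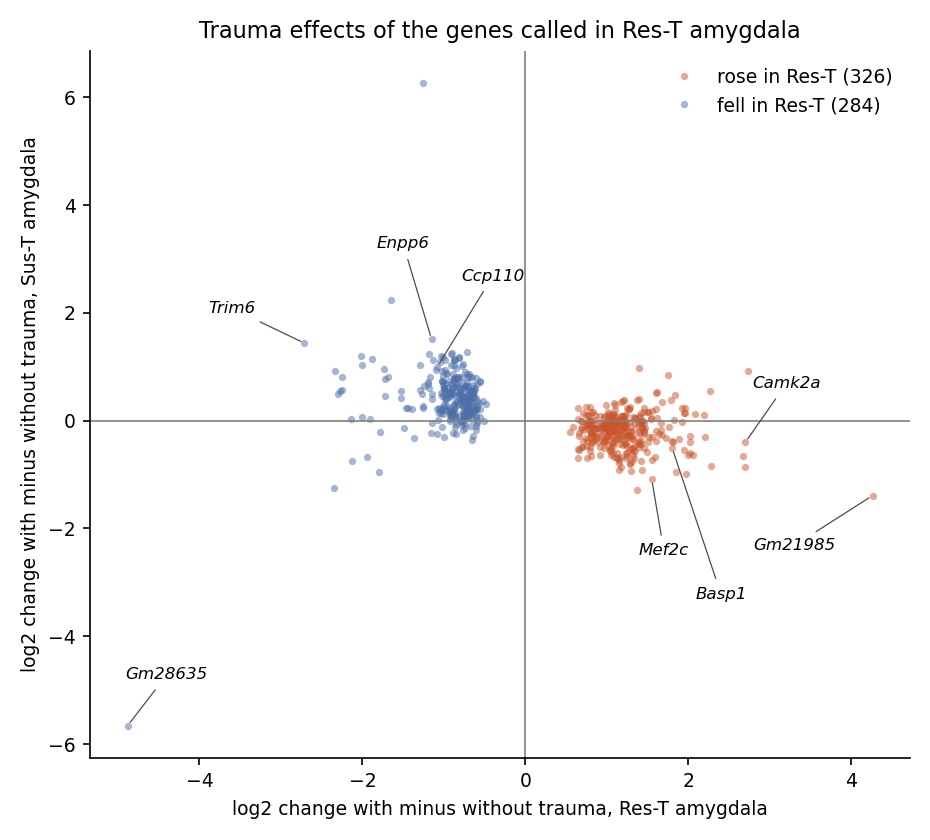
Log2 change with minus without trauma in Res-T amygdala (x) against Sus-T amygdala (y) for the 326 genes that rose and the 284 that fell in Res-T, with 8 genes named. Risers have a median of −0.17 in Sus-T and fallers one of 0.42; Gm28635 at the lower left is low with trauma in both groups.

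In prefrontal Res-T libraries, a separate table of 6080 genes, limma called no gene for trauma (0%), and 899 (14.8%) had an unadjusted p below 0.05. Without replicate 4 of the prefrontal group without trauma 588 were called, so that library decided the count. Of the amygdala risers 101 had prefrontal values and 91 of these (90.1%) had a negative change there (median −0.67), where 53.5% of all prefrontal genes were negative. Of the fallers 178 had prefrontal values and 176 (98.9%) had a positive change (median 0.47, against −0.04 over all genes). Mef2c averaged 508.3 ± 315.9 without and 119.7 ± 31.8 with trauma (log2 −1.77 ± 0.47, adjusted p = 0.169), Rpl10a 377.4 ± 104.1 and 182.0 ± 22.2 (log2 −1.01 ± 0.27, adjusted p = 0.169). Atp11a averaged 1097.4 ± 441.6 and 1817.3 ± 36.7 (log2 0.80 ± 0.23, adjusted p = 0.193) and Chd7 824.4 ± 454.1 and 1307.0 ± 23.0 (log2 0.82 ± 0.36, adjusted p = 0.308). The difference between regions was not tested, since their tables were normalized separately.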

How the data were processed

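RNA of sorted cells was sequenced in pairs of reads. The submitters' processing notes name bcl2fastq 2.20, Salmon 1.2 and the genome GRCm38.p6. The deposited values are a signal per Ensembl gene whose normalization is not given in the sources used here, so read depth is unknown. Libraries listed in several tables had identical values in all 26 repeat columns. Of 9872 identifiers 9871 matched GENCODE M21, 99 of them in another version. The logarithm of the value minus 1 lacked 1 dimension among the 13 amygdala libraries.

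Values were analysed as log2(value + 1) with a mean of at least 1, which removed no gene. Since they are not counts, limma 3.58.1 in R 4.3.3 was used: 4 group means over the 13 amygdala libraries, empirical Bayes with its trend and robust settings, and 9 residual degrees of freedom. Shares were tested by exact permutation over libraries. Deviations of libraries with the same replicate number correlated at −0.050, 0.094 and 0.048, so the numbers were not taken as pairs. Alternatives changed the pseudocount, the filter, the scaling, the covariates and the libraries. Array weights, the missing direction as a covariate and leaving out Sus-T or prefrontal libraries were added after the data were seen.

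Genes were named by rule: the 10 with the smallest p and the 5 with the largest change in each direction, up to 3 called members per list and direction, 5 per direction for the difference of trauma effects, and a set of preselected genes. Predicted genes and models that share a symbol were counted but not named. Further called list members, Pdgfra, the called Sus-T genes, genes with a printed promoter, 2 predicted genes and 1 model that shares its symbol were named as exceptions, after their values were seen. Some called list members are counted but not reported by name here. The comparison and the 34 lists were chosen with earlier results of these data known. The fit was tested on simulated data.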

Additional observations from a re-analysis of the deposited data

Results flagged for a closer look

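In 9 of 89 tested groups of 4 libraries the highest or lowest library stood apart from the others by Dixon's criterion on values without logarithm. Its rate of about 1 in 20 holds for independent groups of normally distributed values. The 89 groups are the same 4 libraries seen in named genes and list shares, so the count cannot be set against that rate. In Res-T with trauma, replicate 2 was the high one for Tuba1b (1199.0), Pld3 (780.4), Fam81a (559.5) and Hs6st2 (116.1) and the low one for Aspa (821.4). Replicate 4 was the high one for Kif13b (1776.2), Cdh10 (496.4), Camk2n1 (971.1) and Nr3c1 (1302.8).

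The trauma effect differed between Res-T and Sus-T amygdala for 52 of the 76 named genes by the test of the difference in limma. Most of the 76 were chosen by their Res-T effect or by this difference, and over all genes the share was 6.74%. The differences below are log2 changes in Res-T minus those in Sus-T. They were positive for 31 genes and negative for 21, where the whole table had 195 higher and 470 lower. Among genes of the terminal, growth cone and cytoskeleton they were 2.29 for Basp1, 1.28 for Syn1, 2.22 for Evl, 1.83 for Tuba1b, 1.28 for Tubb5, 2.02 for Tuba4a, 1.88 for Tiam1, 1.47 for Snap91 and 2.27 for Bsn. Signalling genes had 2.07 (Ncs1), 2.81 (Gng2), 2.70 (Gng3), 1.57 (Prkce), 3.11 (Crlf2) and 2.63 (Mef2c), and Pld3 had 1.97. Postsynaptic and receptor genes had 3.10 (Camk2a), 1.82 (Dlgap1), 1.95 (Psd), 1.17 (Grik5) and 1.58 (Grin3a). Potassium channel genes had 1.79 (Kcnma1), 1.39 (Kcnip3) and 1.80 (Kcnc1). Ribosomal and respiratory genes had 1.38 (Rps23), 1.60 (Rpl10a), 1.16 (Rps13), 1.49 (Atp5k) and 1.14 (Ndufb8), and the plexins 1.88 (Plxna4) and 1.81 (Plxnd1).

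Among the negative differences were −1.21 for Chd7, −1.76 for Plekha1, −1.57 for Map7, −2.09 for Ccp110, −1.23 for Ick, −1.46 for Daam1, −1.94 for Prickle1, −1.60 for Ptprd, −1.34 for Atp11a, −4.14 for Trim6 and −2.82 for Shcbp1l. Among guidance, adhesion and motor genes it was −1.01 for Sema4d, −1.75 for Pcdh9, −2.11 for Unc5c, −1.13 for Cdh10, −1.57 for Kif13b and −0.98 for Kif13a. Genes of the oligodendrocyte lineage lists had −2.15 (Aspa), −2.01 (Myrf) and −2.66 (Enpp6), and Tmem88b had −1.99. With the mean oligodendrocyte marker value as a covariate 2 genes of the whole table were called for this difference.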

How the results depend on the processing

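All 610 genes called for trauma in Res-T amygdala kept their direction in every alternative that measured them. They were chosen by significance in these same libraries, and most had groups without overlap, so leaving out a library could rarely change it. The count of 610 (326 higher, 284 lower) was 339 (187 and 152) without the trend and robust options, and quantile normalization gave 500 with 146 lower. Chosen after the data were seen, array weights gave 1389 (629 and 760) and the missing direction as a covariate gave 389 with 164 lower, all 389 among the 610. With the oligodendrocyte covariate 570 were called (342 and 228), 301 of them among the 610. Leaving out each of the 7 Res-T libraries in turn gave 101 to 708 calls, 62 to 375 higher and 39 to 333 lower. With the replicate number as a block, although the numbers do not pair the libraries, 677 were called, and the difference of trauma effects had 463. That difference, 665 calls, had 403 with the missing direction, 366 without trend and robust options, 2 with the oligodendrocyte covariate and 59 to 810 when leaving out one library. The Sus-T count of 3 was 17 at a mean of at least 10, 47 with median centring, 18 with a pseudocount of 10, 28 after quantile normalization, 1 with the oligodendrocyte covariate and 1 to 287 when leaving out one library. The prefrontal count of 0 ranged from 0 to 588 when leaving out one library. The cause of these shifts was not tested. Leaving out one library, changes that were not called ranged from −0.74 to 0.89 for Fkbp5 (−0.08 without replicate 1 with trauma) and from −0.07 to 0.52 for Arc. Differences in library share, in percentage points, ranged likewise from −0.00272 to 0.00713 for interneuron markers (−0.00257 without replicate 1 with trauma), from −0.00225 to 0.0227 for oligodendrocyte precursor markers (−0.00216 without that library), from −0.00158 to 0.00203 for endothelial markers (0.00106 without it) and from −0.000801 to 0.00053 for ependymal markers (−0.000223 after quantile normalization). DESeq2, planned only for counts, was not run. Read depth is unknown, so counting error could not be given; with 3 against 4 libraries the exact test cannot go below 0.0571.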

Other observations

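The most extreme changes were in 2 predicted protein-coding genes of chromosome 2, singled out after their values were seen. Gm28635 (84601439 to 84678041, minus strand) had values of 245.6, 48.7 and 55.5 in Res-T without trauma and 1.79, 2.04, 2.09 and 2.11 with trauma (log2 −4.88 ± 0.56, limma adjusted p = 0.000444). In Sus-T it went from 228.9 and 99.4 to 1.94, 1.84, 2.10 and 2.16 (log2 −5.66 ± 0.63, adjusted p = 0.000321), so all 8 amygdala libraries with trauma lay near the lowest value of the table and all 5 without lay far above it. Gm21985 (112266314 to 112406319, plus strand) had a value of 2.0 in each Res-T library without trauma and 63.5, 81.6, 50.3 and 38.8 with trauma (log2 4.26 ± 0.81, adjusted p = 0.01). In Sus-T it was mixed, at 39.2 and 17.5 without and 53.9, 2.01, 2.0 and 22.9 with trauma.

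One of the models that share the symbol Zc3h11a (ENSMUSG00000116275.1) had values of 294.0, 360.9 and 456.1 without and 130.3, 149.5, 198.5 and 138.5 with trauma in Res-T (log2 −1.25 ± 0.26, adjusted p = 0.0111). In Sus-T it had 2.22 and 1.82 without and 305.6, 190.0, 197.5 and 250.1 with trauma. Reads of overlapping models may be divided between them, so this gene is uncertain.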
